A study of Mus musculus with 2 samples.

Results

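Tight junctions seal the space between neighbouring epithelial cells near their apical face. The genes described here were Cldn1, Cldn3, Cldn4, Cldn7 and Cldn10, which encode claudins, Ocln, which encodes occludin, Lsr, which encodes the tricellular junction protein that recruits tricellulin, F11r, which encodes the junctional adhesion molecule JAM-A, and Tjp1, which encodes the scaffold ZO-1. They were chosen by name as components of the junction, and all 9 were among the 28000 rows of the count table, which held 27998 mouse genes and 2 reporters. Claudins are the membrane strands of the junction and set which ions may pass, occludin and JAM-A sit beside them in the membrane, and ZO-1 ties them to actin. In the mammary gland the luminal cells face the duct lumen and carry the junction belt, while the basal cells lie between them and the basement membrane.

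Single cells were sequenced from mouse mammary epithelium that had been rebuilt from mixed cells. Basal cells carrying the R26R mT/mG reporter, which switches from red to green fluorescence after recombination, were either Fgfr2+/+ (Ctrl) or Fgfr2 fl/fl (Fgfr2 KO), and both were treated with an adenovirus expressing Cre and GFP. They were mixed with red wild-type luminal cells and injected into fat pads cleared of their own epithelium in female nude mice aged 3 weeks. Outgrowths were collected 5 days after surgery and sorted. There was 1 library per group, 268 cells in Ctrl and 86 in Fgfr2 KO, with 5458515 and 1253032 unique molecular identifiers (UMIs, each standing for 1 captured transcript molecule), so no comparison below has a replicate check and no p-value is given. The intervals are exact 95% intervals that cover counting error only.

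Cells with no UMI of Ptprc, which encodes CD45, were classed by their keratins: cells with more Krt14 and Krt5 UMIs as basal keratin cells and cells with more Krt8 and Krt18 UMIs as luminal keratin cells, with at least 10 keratin UMIs in all. This left 63 basal and 98 luminal keratin cells in Ctrl and 17 and 20 in Fgfr2 KO. Median depth was 16117 and 22668 UMIs per cell in the Ctrl classes and 16985 and 24626 in the Fgfr2 KO classes. The class names were supported by the other markers: in Ctrl, 8 of 9 basal markers with enough UMIs were at least 2-fold lower in luminal keratin cells, and 5 of 10 luminal markers were at least 2-fold higher with none lower. Fgfr2 itself stood at 32.9 counts per 1000000 UMIs (CPM) in Ctrl basal keratin cells, from 41 UMIs, and at 24.7 CPM in Fgfr2 KO basal keratin cells, from 7 UMIs, a log2 ratio of -0.41 (-1.81 to 0.76). A deleted allele can still give reads from its undeleted end, so this level does not check the deletion.

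Free RNA was measured in cells that should lack the junction. In the 58 CD45-positive Ctrl cells with few keratin UMIs, all 9 genes together gave 78.8 CPM, against 1750 CPM in Ctrl luminal keratin cells, and Ocln and Tjp1 gave 0 UMIs, for which a floor of 3 counts is 4.46 CPM and the exact upper bound 5.49 CPM. Cldn4 was the most widespread of them there, with a UMI in 32.8% of those cells (21.0% to 46.3%). The summed immune markers, which keratin cells should lack, were at 434 and 458 CPM in Ctrl basal and luminal keratin cells and at 127 and 162 CPM in the Fgfr2 KO classes, so the load of such RNA differed between the libraries. Its part in the Fgfr2 KO to Ctrl ratios was not tested.

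The sequences upstream of 4 of the genes are shown because these genes separate in the results: Cldn3 and Cldn4 were high in luminal keratin cells, whereas Lsr and F11r were at similar levels in both classes of Ctrl. Cldn4 (chr5:134945119-134946934, minus strand) and Cldn3 (chr5:134986214-134987472, plus strand) are neighbours, with 39279 bases between them, in build GRCm38. F11r lies at chr1:171437535-171464603, and Lsr at chr7:30957770-30973464 on the minus strand. Each line gives the 250 bases before the start site, 5′ to 3′ on the gene's strand, from RefSeq in build GRCm38.p6, with matches to an E-box (CAGGTG or CACCTG), an AP-1 site (TGAGTCA or TGACTCA) and a GC box (GGGCGG or CCGCCC) in capitals. The windows are chr5:134985964-134986213 for Cldn3, chr5:134946935-134947184 for Cldn4, chr7:30973470-30973719 for Lsr and chr1:171437311-171437560 for F11r.
Cldn3: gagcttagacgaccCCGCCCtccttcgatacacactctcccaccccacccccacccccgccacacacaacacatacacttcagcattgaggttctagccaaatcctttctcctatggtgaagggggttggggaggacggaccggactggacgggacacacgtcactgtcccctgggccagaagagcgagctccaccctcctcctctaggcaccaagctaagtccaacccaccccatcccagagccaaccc
Cldn4: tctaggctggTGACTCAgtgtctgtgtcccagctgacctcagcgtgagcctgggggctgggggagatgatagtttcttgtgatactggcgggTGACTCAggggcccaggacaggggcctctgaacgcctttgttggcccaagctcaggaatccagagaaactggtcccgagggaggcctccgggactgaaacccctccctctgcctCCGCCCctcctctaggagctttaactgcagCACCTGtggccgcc
Lsr: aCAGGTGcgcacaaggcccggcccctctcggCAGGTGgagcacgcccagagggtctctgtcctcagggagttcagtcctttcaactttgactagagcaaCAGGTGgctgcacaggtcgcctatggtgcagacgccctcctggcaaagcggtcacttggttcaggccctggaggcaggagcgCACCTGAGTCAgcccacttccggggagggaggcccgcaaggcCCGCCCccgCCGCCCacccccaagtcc
F11r: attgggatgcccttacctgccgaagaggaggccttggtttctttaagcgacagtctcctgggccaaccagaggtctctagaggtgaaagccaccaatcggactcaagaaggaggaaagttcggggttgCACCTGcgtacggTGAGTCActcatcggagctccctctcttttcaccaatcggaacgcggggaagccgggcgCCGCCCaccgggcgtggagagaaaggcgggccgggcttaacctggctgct

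E-boxes are bound by the Snai and Zeb repressors of epithelial genes, AP-1 sites by Fos and Jun, and GC boxes by Sp1. Of 32851 mouse promoter windows of this length, 17.2% held the E-box, 4.46% the AP-1 site and 32.7% the GC box. The Lsr window held 4 E-boxes, 1 AP-1 site and 2 GC boxes, and its AP-1 match at base -65 shares bases with the E-box at base -69, counted from the start site. Cldn4 held 1 E-box and 2 AP-1 sites, F11r 1 of each, and Cldn3 neither. Of all 9 genes, 5 held an E-box and 3 an AP-1 site in at least 1 window, and none held the grainyhead motif AACCGGTT, which 0.116% of windows held. A match describes letters and is not evidence of binding.

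The first question was how the junction genes divide between luminal and basal cells. In Ctrl, 4 claudins and Ocln were at least 2-fold higher in luminal keratin cells, while Lsr, F11r, Tjp1 and Cldn1 were within 2-fold. Cldn10 differed by the widest margin, 92.1 against 8.03 CPM, a log2 ratio of 3.52 (2.62 to 4.60). Its level in Ctrl basal keratin cells was not above that of the CD45-positive cells with few keratin UMIs, 8.92 CPM.

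Cldn4, whose product is a barrier-forming claudin of tight epithelia, stood at 762 CPM in luminal and 226 CPM in basal keratin cells of Ctrl (log2 ratio 1.75, 1.57 to 1.94). Cldn3 stood at 331 and 109 CPM (1.60, 1.34 to 1.87), and Cldn7 at 250 and 98.7 CPM (1.34, 1.06 to 1.63). Ocln was sparse, with 44 UMIs in luminal and 8 in basal keratin cells (1.38, 0.28 to 2.68). All 5 stayed above 0 in each alternative of the processing that could be computed, but their sizes moved. Cldn10 ran from 2.78 to 3.90, Cldn4 from 1.52 to 2.91, Cldn3 from 1.48 to 2.96, Cldn7 from 1.19 to 2.73 and Ocln from 1.23 to 3.45.

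Lsr was at 128 CPM in luminal and 121 CPM in basal keratin cells (log2 ratio 0.08, -0.20 to 0.37). F11r was at 136 and 114 CPM (0.26, -0.03 to 0.55), and Tjp1 at 27.8 and 21.7 CPM (0.36, -0.30 to 1.05). For Lsr and F11r the upper bounds of these intervals lie well under 2-fold (a log2 ratio of 1), and for Tjp1 the upper bound lies at about 2-fold. Over 15 alternatives Lsr ran from 0.02 to 0.48 and F11r from 0.20 to 0.79, so both also stayed above 0 but under 2-fold. Cldn1 had 25 UMIs in the 2 classes together and its ratio, -0.25 (-1.51 to 1.11), was not resolved at this depth.

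Counted over the 9 genes, 5 were at least 2-fold higher and 0 lower in luminal keratin cells of Ctrl, with a median log2 ratio of 1.34. Of all 9535 genes with at least 20 UMIs, 9.05% were at least 2-fold higher and 5.51% lower, with a median of 0.11.

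**Figure D1:**
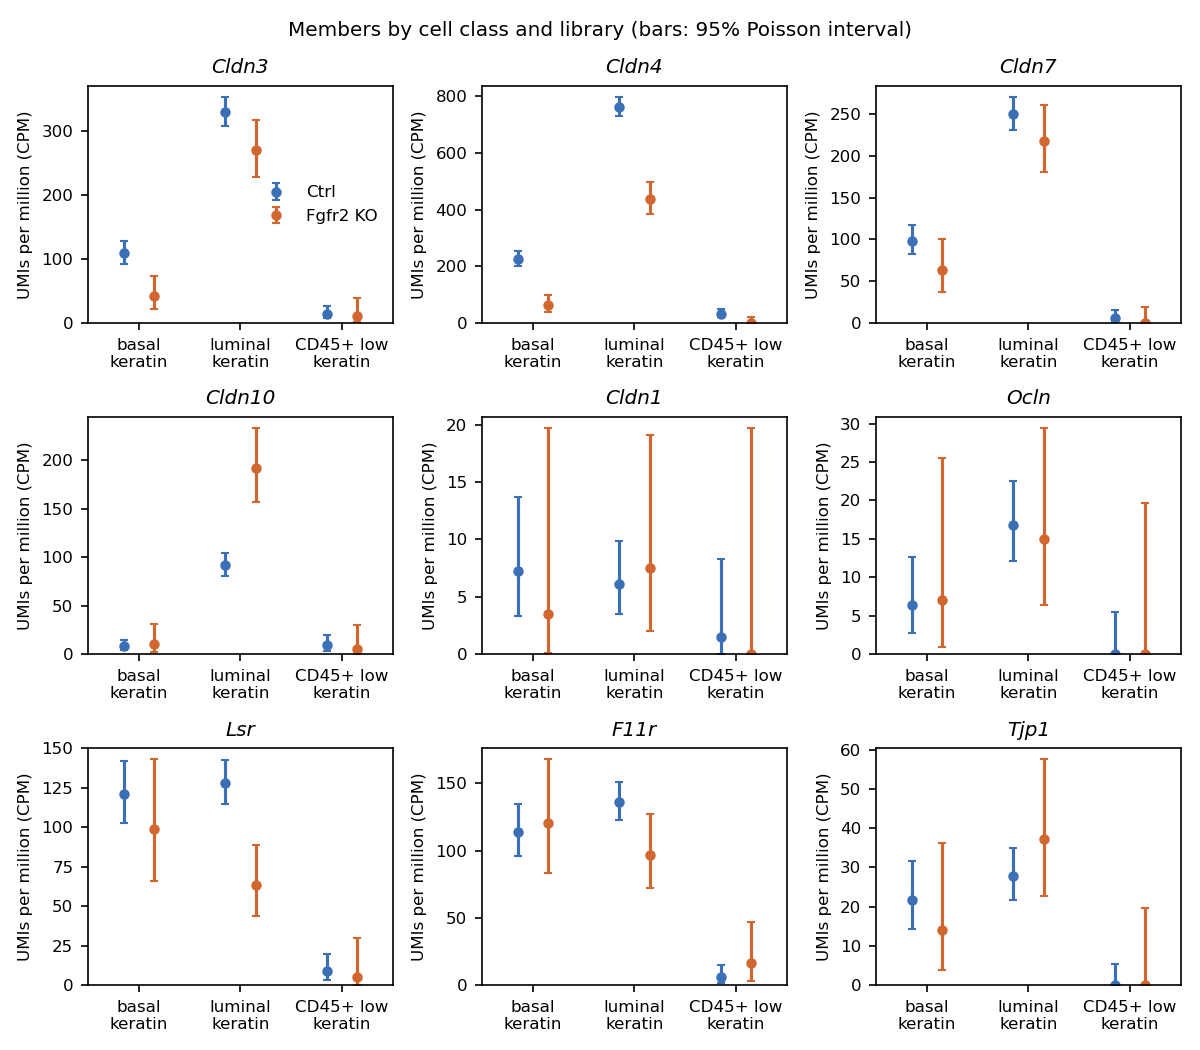
CPM (y axis) of each gene in basal keratin cells, luminal keratin cells and CD45-positive cells with few keratin UMIs, with points for the summed cells of the Ctrl and Fgfr2 KO libraries and bars for the exact 95% Poisson interval. Cldn3, Cldn4, Cldn7 and Cldn10 are high in luminal keratin cells of both libraries, while Lsr and F11r in Ctrl are between 114 and 136 CPM in both classes.

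The single cells showed the same division. Per 10000 UMIs of a cell, Cldn3, Cldn4 and Cldn7 together ran from 0 to 78.6 with a median of 10.8 in the 98 Ctrl luminal keratin cells, and from 0 to 22.5 with a median of 1.92 in the 63 basal keratin cells. Only 1 luminal keratin cell of Ctrl had none of the 3 genes, against 9 basal keratin cells. Lsr and F11r together had medians of 2.59 and 2.14 in those classes, with ranges of 0 to 10.0 and 0 to 5.25, so the highest luminal keratin cells lay above every basal keratin cell. With each cell thinned to 8574 UMIs, which left out 6 luminal and 7 basal keratin cells of Ctrl, all 3 claudins were found in 63.0% of luminal and 12.5% of basal keratin cells, while Lsr was found in 59.8% (49.0% to 69.9%) and 57.1% (43.2% to 70.3%). Without thinning Lsr had a UMI in 87.8% and 74.6% of the cells. It had a UMI in 10.3% of the 58 CD45-positive cells, whose median depth was 10148 UMIs.

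**Figure D2:**
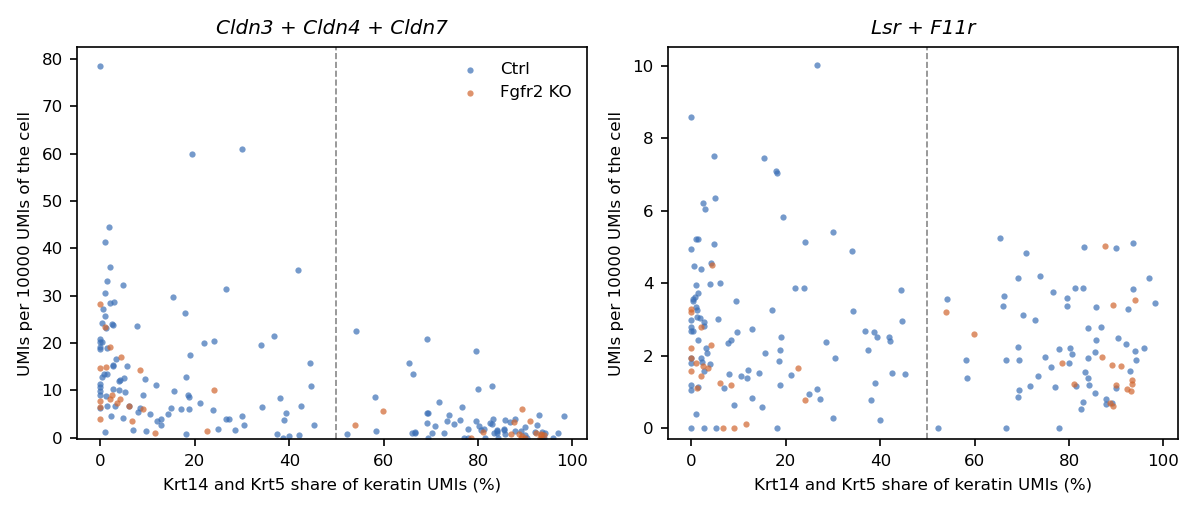
Each point is 1 keratin cell without Ptprc UMIs, with the Krt14 and Krt5 share of its keratin UMIs in percent (x axis) against its UMIs of Cldn3, Cldn4 and Cldn7 (left) or of Lsr and F11r (right) per 10000 UMIs of the cell (y axis). Claudin values reach 78.6 among luminal keratin cells and stay at or below 22.5 among basal keratin cells, while Lsr and F11r reach 10.0 and 5.25 in those classes of Ctrl.

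Many Ctrl cells had UMIs of keratins of both kinds, and the claudins followed the mix. Keratin UMIs were also found in the 58 CD45-positive Ctrl cells, although these were chosen for few of them. Krt14 was at 90.7 CPM there, Krt8 at 98.2 CPM and Krt18 at 118 CPM. The part of such RNA in the mixed bin was not tested. In cells with at least 80% luminal keratin UMIs, 71 cells, Cldn3 was at 373 CPM. It was at 188 CPM in the 56 mixed cells and at 47.8 CPM in the 35 cells with at least 80% basal keratin UMIs. Cldn4 gave 796, 480 and 156 CPM and Cldn7 285, 150 and 43.0 CPM over the same 3 bins. These are pooled levels. The median cell had 5.61, 1.70 and 0.642 Cldn4 UMIs per 10000 UMIs, so most mixed cells lay below their pooled Cldn4 level. Cldn10 was instead at 119 CPM in the first bin and at 10.7 and 7.96 CPM in the others, so the mixed cells, pooled, had Cldn3, Cldn4 and Cldn7 but little Cldn10. Lsr gave 128, 127 and 111 CPM, and F11r 145, 111 and 115 CPM. Scrublet, a doublet caller, marked none of the 63 basal and 98 luminal keratin cells of Ctrl, and doublets were not removed.

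**Figure D3:**
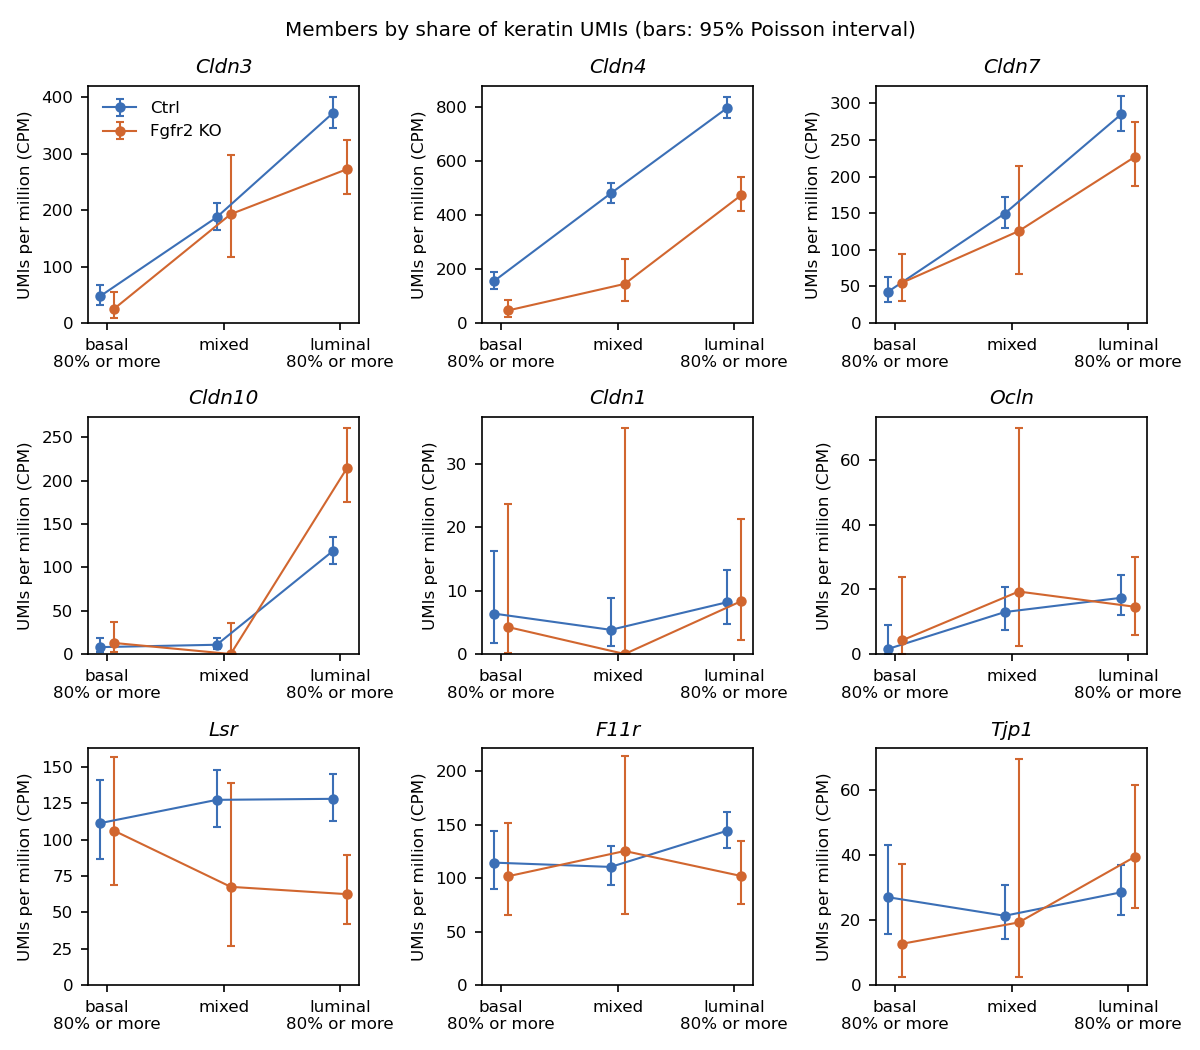
CPM (y axis) of each gene in cells with at least 80% basal keratin UMIs, mixed cells and cells with at least 80% luminal keratin UMIs (x axis), with lines for Ctrl and Fgfr2 KO and bars for the exact 95% Poisson interval. In Ctrl, Cldn3, Cldn4 and Cldn7 climb from left to right, Cldn10 is high in the last bin alone, and Lsr stays between 111 and 128 CPM.

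Luminal cells comprise hormone-sensing cells, which carry the oestrogen and progesterone receptors, and secretory progenitors, which give rise to milk-producing cells. Luminal keratin cells were divided by which of the 2 marker lists had more genes with a UMI, giving 63 hormone-sensing leaning and 26 progenitor leaning cells in Ctrl and 14 and 6 in Fgfr2 KO. The split is a range, since 10 and 7 of those Ctrl cells were 1 gene from an even count. The summed progenitor markers were at 1044 CPM in Ctrl luminal keratin cells. They reached 1017 CPM in CD45-positive Ctrl cells with few keratin UMIs, where the hormone-sensing markers were at 207 CPM. The part of immune RNA in the split was not tested. The receptor genes Esr1 and Pgr stood at 20.9 and 30.1 CPM in Ctrl luminal keratin cells. The Fgfr2 KO levels were 1.9 and 16.8 CPM, resting on 1 and 9 UMIs. Cldn4 was at 1099 CPM in hormone-sensing leaning and 260 CPM in progenitor leaning cells of Ctrl, a log2 ratio of progenitor over hormone-sensing of -2.08 (-2.30 to -1.87). Cldn10 was at 137 and 11.6 CPM (-3.56, -4.71 to -2.61), so in progenitor leaning cells of Ctrl it too was close to the level of CD45-positive cells.

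Other members divided less. Cldn3 was at 379 and 268 CPM (-0.50, -0.74 to -0.27), Cldn7 at 281 and 220 CPM (-0.35, -0.61 to -0.09), and F11r at 162 and 100 CPM (-0.69, -1.07 to -0.32). Lsr, at 146 and 121 CPM (-0.27, -0.63 to 0.08), did not separate beyond counting error. Tjp1 had 54 and 13 UMIs (-1.03, -2.03 to -0.14). Ocln, on 24 and 16 UMIs (0.44, -0.57 to 1.41), and Cldn1, on 8 and 8 (1.03, -0.59 to 2.64), had ratios above 0 with intervals that include 0. In the Fgfr2 KO library Cldn4 again was higher in the hormone-sensing leaning cells, 514 against 230 CPM (-1.16, -1.74 to -0.62), but Cldn10 was not, 196 against 181 CPM (-0.11, -0.81 to 0.54), the second value resting on 26 UMIs in 3 of 6 cells. Cldn3 (0.21, -0.34 to 0.73) and Cldn7 (0.22, -0.39 to 0.81) did not keep the Ctrl direction in Fgfr2 KO, with intervals that include 0. The list of marker genes contains none of the 9 genes.

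**Figure D4:**
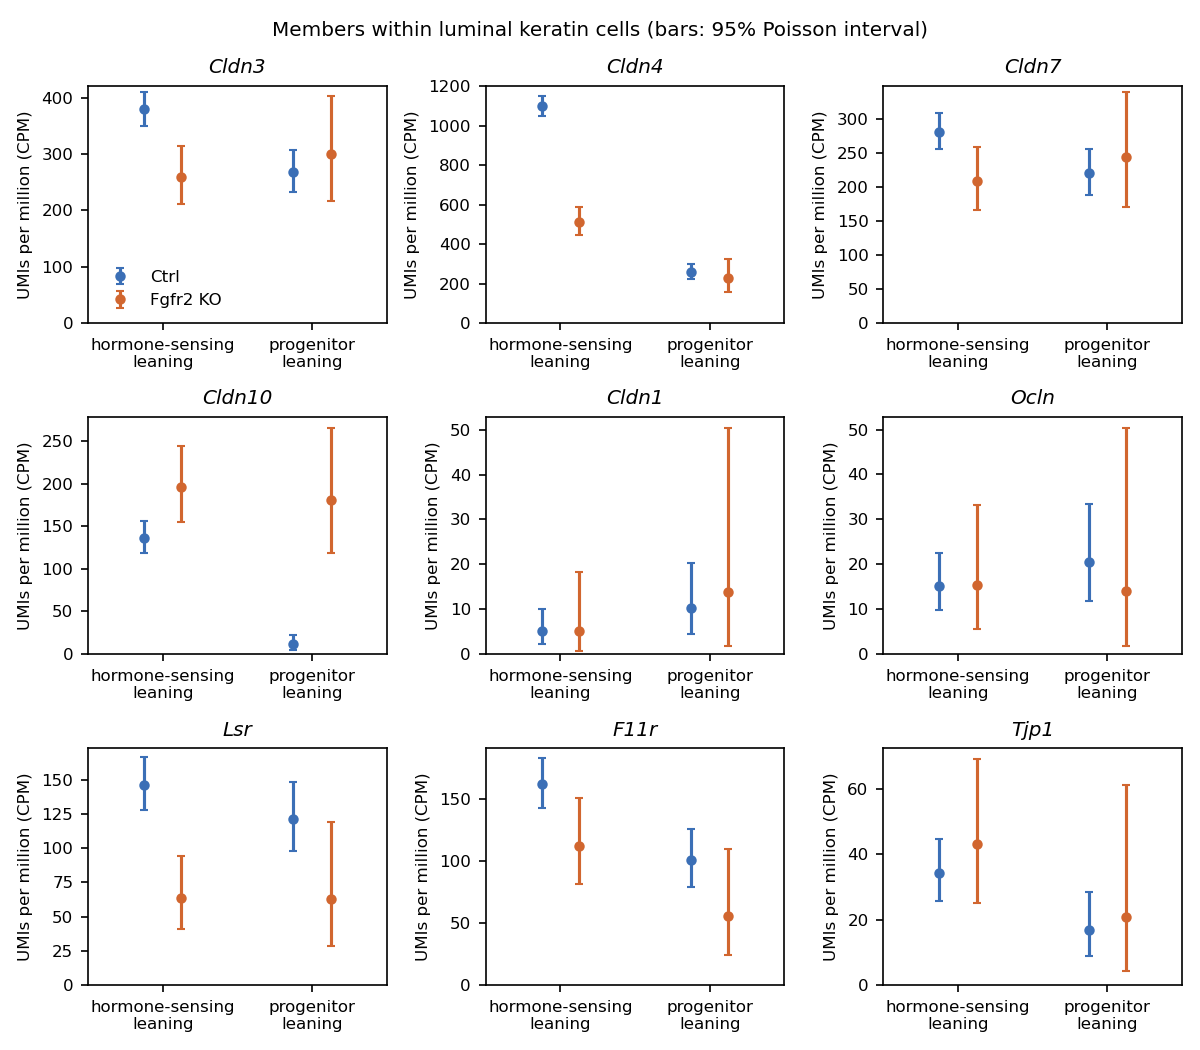
CPM (y axis) of each gene in luminal keratin cells that lean to hormone-sensing or progenitor markers (x axis), with points for the summed cells of Ctrl and Fgfr2 KO and bars for the exact 95% Poisson interval. In Ctrl, Cldn4 is at 1099 CPM in hormone-sensing leaning cells and at 260 CPM in progenitor leaning cells.

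The likeness of other genes to the 9 was measured across cells. The summed UMIs of the 9 genes weigh the abundant claudins most. Before thinning, Cldn4 gave 2003, Cldn3 869 and Cldn7 658 of the 4600 UMIs in Ctrl luminal keratin cells. Over the 148 thinned Ctrl keratin cells, 4177 genes had a UMI in at least 20% of cells. Spearman's correlation with the summed UMIs was highest for Krt8 (0.74) and Krt18 (0.73), the genes of the class rule. Next came Basp1 (0.71), Cystm1 (0.68), Tspan1 (0.67), Krt7 (0.67), Fam25c (0.66), Krt19 (0.65), Epcam (0.64), which encodes an adhesion molecule of epithelia, and Wnt4 (0.62), a progesterone-responsive ligand of hormone-sensing cells. Cldn4 correlated with Cldn7 at 0.58 and with Cldn3 at 0.52, and Lsr with F11r at 0.06. Within luminal keratin cells alone the first was 0.52 over 92 cells. Over 30 thinned Fgfr2 KO keratin cells the likeness was 0.79 for Krt8, 0.82 for Krt18 and 0.84 for Krt19, but 0.50 for Basp1, 0.42 for Wnt4 and 0.33 for Cystm1. The cells of each value share 1 library, and the values are descriptions.

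Cldn3, Cldn4, Cldn7 and Cldn10 were also higher in luminal keratin cells of the Fgfr2 KO library, on fewer cells. Per 10000 UMIs of a cell, Cldn3, Cldn4 and Cldn7 together ran from 1.07 to 28.1 with a median of 8.18 in the 20 luminal keratin cells, and from 0 to 6.0 with a median of 0.700 in the 17 basal keratin cells, so the ranges overlapped. Of 7 members with at least 20 UMIs, 5 were at least 2-fold higher in luminal keratin cells and 0 lower, with a median log2 ratio of 1.78. The share over all 4653 genes tested was 13.8% higher and 7.33% lower, with a median of 0.17. Cldn10 (4.18, 2.59 to 6.48, on 3 basal UMIs), Cldn4 (2.78, 2.09 to 3.56), Cldn3 (2.67, 1.82 to 3.66) and Cldn7 (1.78, 1.06 to 2.58) were higher, as was Tjp1 (1.40, -0.18 to 3.41), whose interval includes 0. Lsr was at 63.4 CPM in luminal and 98.9 CPM in basal keratin cells (-0.64, -1.41 to 0.13), and F11r at 97.0 and 120 CPM (-0.31, -0.96 to 0.36).

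The second question was which junction genes differed between the libraries. In luminal keratin cells, Cldn10 was higher and Lsr lower in Fgfr2 KO by at least 2-fold. Cldn10 was at 192 against 92.1 CPM (log2 ratio 1.06, 0.71 to 1.40), and Lsr at 63.4 against 128 CPM (-1.02, -1.57 to -0.50). Both lay near the 2-fold line. Over 15 alternatives Cldn10 ran from 0.76 to 1.56 and Lsr from -1.51 to -0.63, the last with CD45-positive keratin cells admitted, and in 7 of them the count of genes past 2-fold fell to 1. Cldn4 was at 438 against 762 CPM (-0.80, -1.0 to -0.60). F11r had a ratio of -0.49 (-0.94 to -0.07) and Cldn3 one of -0.29 (-0.55 to -0.03). With CD45-positive keratin cells admitted both intervals included 0, at -0.31 (-0.71 to 0.07) and -0.09 (-0.33 to 0.14), and without cells with UMIs of at least 3 immune marker genes the Cldn3 ratio turned to 0.31 (-0.23 to 0.86). Cldn7 (-0.20, -0.49 to 0.09), Ocln (-0.17, -1.46 to 0.94), Cldn1 (0.29, -1.75 to 1.93) and Tjp1 (0.43, -0.37 to 1.16) had intervals that include 0.

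Of the 9 genes, 1 was at least 2-fold higher and 1 lower, with a median of -0.20, against 3.94% higher and 8.97% lower over all 9065 genes tested, with a median of -0.03. The Cldn4 level in Fgfr2 KO rested in part on single cells, since 1 cell held 68 of its 235 UMIs (28.9%). Without the top cell of each group its log2 ratio was -1.12, and with CD45-positive keratin cells admitted, among them 1 Fgfr2 KO cell of 83994 UMIs, it was -0.37. Over all alternatives the Cldn4 ratio ran from -1.73 to -0.37. Within the hormone-sensing leaning cells the Cldn4 ratio was -1.10 (-1.31 to -0.88), and within the progenitor leaning cells -0.18 (-0.75 to 0.36). The Cldn10 ratio was 0.52 (0.13 to 0.90) within the hormone-sensing leaning cells, under 2-fold, and 3.97 (2.83 to 5.25) within the progenitor leaning cells, where it rested on 26 UMIs in 3 of 6 Fgfr2 KO cells against 9 UMIs in 26 Ctrl cells.

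Reporter and immune counts moved with the library as well. Of the luminal keratin cells, 3 of the 98 from Ctrl but 6 of the 20 from Fgfr2 KO had at least 10 GFP UMIs, and the donor luminal cells were red. In basal keratin cells 2 of 63 and 2 of 17 did, and GFP in Fgfr2 KO was at 477 CPM in basal and 1227 CPM in luminal keratin cells, although 1 cell held 103 of the 135 GFP UMIs of the former (76.3%). A GFP UMI was found in 9 of 17 basal and 14 of 20 luminal keratin cells of Fgfr2 KO, and one of tdTomato, the red reporter, in 8 and 9. The reporter RNA thus did not mark the basal keratin cells as the recombined ones, and the virus also expressed GFP. In transplants examined later, the paper reports that Fgfr2 null basal cells had become luminal. The Fgfr2 KO luminal class may therefore hold cells of either donor, and their origin was not tested. Without cells of at least 10 GFP UMIs the luminal ratios were 0.76 (0.29 to 1.20) for Cldn10, -1.01 (-1.70 to -0.39) for Lsr and -0.75 for Cldn4. Without cells with UMIs of at least 6 immune marker genes, they were 1.38, -1.08 and -1.29.

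Fibroblast markers were also unequal: their summed level was 561 CPM in Ctrl luminal keratin cells and 151 CPM in those of Fgfr2 KO. Leaving out cells with over 10 fibroblast marker UMIs gave -0.82 for Cldn4, 1.05 for Cldn10 and -1.25 for Lsr.

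In basal keratin cells, the class into which the design, though not the reporter counts, placed the Fgfr2 deletion, Cldn4 and Cldn3 were lower in Fgfr2 KO. Cldn4 was at 63.6 against 226 CPM (-1.83, -2.61 to -1.14) and Cldn3 at 42.4 against 109 CPM (-1.36, -2.35 to -0.51), from 18 and 12 UMIs in the Fgfr2 KO cells. In Ctrl 1 basal cell held 35 of the 136 Cldn3 UMIs (25.7%), and without the top cell of each group the ratios were -2.27 and -1.47. Without cells with UMIs of at least 6 immune marker genes they were -1.62 and -0.95, and with cells thinned to 1 depth -1.18 (-2.36 to -0.19) and -0.78 (-2.49 to 0.57), so the Cldn3 difference fell under 2-fold in both.

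Other class markers moved with these claudins. Of 9 luminal markers 4 were at least 2-fold lower and 0 higher in Fgfr2 KO basal keratin cells, among them Krt7 (-2.25, -3.33 to -1.34), Krt19 (-1.57, -2.37 to -0.86) and Wfdc18 (-1.92, -3.08 to -0.96), which were named after their values were seen. Of 8 basal markers 4 were at least 2-fold higher and 0 lower. Cells with at least 80% basal keratin UMIs were 14 in Fgfr2 KO and 35 in Ctrl, and among them Cldn4 was at 46.7 against 156 CPM and Cldn3 at 25.5 against 47.8 CPM, the latter under 2-fold. The part of this marker shift in the claudin ratios was not tested. Cldn7 (-0.63, -1.44 to 0.09), Lsr (-0.29, -0.93 to 0.30) and F11r (0.08, -0.51 to 0.62) were not separated beyond counting error, and Tjp1 (-0.62, -2.59 to 0.90) had 4 UMIs in the Fgfr2 KO cells. Of the 6 genes with at least 20 UMIs, 2 were lower and 0 higher, with a median of -0.63. Over all 6637 genes tested 11.5% were lower and 4.14% higher, with a median of -0.10.

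**Figure D5:**
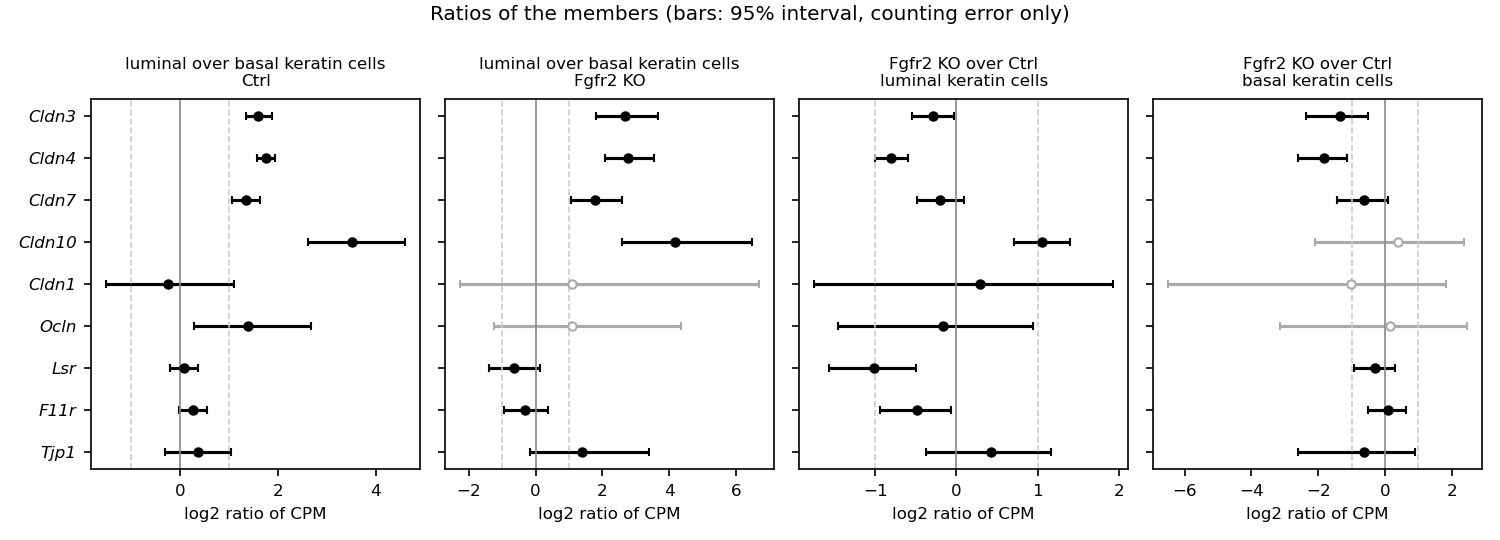
Log2 ratio of CPM (x axis) for each gene in 4 comparisons, with bars for the exact 95% interval and dashed lines at 2-fold. Open grey points have under 20 UMIs over both groups. Cldn10 and Cldn4 lie beyond the 2-fold line in both luminal over basal comparisons, and Lsr lies near the lower line in luminal keratin cells of Fgfr2 KO over Ctrl.

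The other genes of the tight junction were described from a longer list. Of 39 in the table, 24 had at least 20 UMIs in Ctrl, where 7 were at least 2-fold higher and 1 lower in luminal keratin cells, with a median log2 ratio of 0.48, against 9.05% and 5.51% of all genes with a median of 0.11. Cldn6 (2.51), a claudin of embryonic epithelia, Tjp3 (2.38), which encodes the scaffold ZO-3, and Cgn (1.85), which encodes cingulin, led them. In Fgfr2 KO, 12 could be compared, 5 were higher and 1 lower, with a median of 0.91, against 13.8% and 7.33% of all genes with a median of 0.17. They were led by Crb3 (2.83, 0.84 to 5.95) and Mpp5 (2.54, 0.51 to 5.67), a pair of apical polarity genes, and by Arhgef2 (1.95, 0.72 to 3.47). Crb3 had 27 luminal and 2 basal UMIs, and Mpp5 22 and 2. Cldn6 had 22 and 0, so its call rests on the floor of 3 counts. These 3 genes reached 20 UMIs through the luminal keratin cells alone. Between the libraries 1 of 24 was at least 2-fold higher in luminal keratin cells of Fgfr2 KO, Mpp5 (1.26, 0.45 to 2.03), and 1 of 13 lower in basal keratin cells, Mpp5 again, on 2 UMIs (-1.51, -4.63 to 0.50). Both counts are near the shares of all genes, 3.94% and 11.5%.

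Genes of other junctions are read beside the shares of all genes in Ctrl, 9.05% higher and 5.51% lower in luminal keratin cells. Of 12 adherens junction genes, 1 was at least 2-fold higher, Pvrl4 (1.23, 0.71 to 1.79), which encodes a nectin, and 1 lower, Cdh3 (-2.28, -2.85 to -1.73), which encodes P-cadherin. Of 9 desmosome genes, Pkp2 (2.17, 1.12 to 3.43) and Dsc2 (1.57, 0.41 to 2.97) were higher and Perp (-1.56, -1.74 to -1.37) was lower. The median of the 9 was -0.38, with 6 below 0. In Fgfr2 KO, 0 of 7 desmosome genes were at least 2-fold higher and 4 lower in luminal keratin cells, with a median of -1.02. The shares of all genes there were 13.8% higher and 7.33% lower. In luminal keratin cells of Fgfr2 KO over Ctrl, 1 of 12 adherens junction and 1 of 9 desmosome genes were at least 2-fold lower. These were Cdh3, on 2 UMIs (-2.03, -5.12 to -0.08), and Dsc2, on 3 UMIs (-1.58, -3.91 to 0.06), and 0 were higher. Both medians were -0.37, with 10 of 12 and 9 of 9 genes below 0, against -0.03 for all genes. Of all genes 8.97% were lower and 3.94% higher.

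Regulators of epithelial and mesenchymal genes were measured too, and their counts stand beside the same 9.05% higher and 5.51% lower of all genes in Ctrl. Of 10 epithelial regulators in Ctrl, 3 were at least 2-fold higher in luminal keratin cells, led by Elf5 (2.81, 1.52 to 4.47), a regulator of secretory progenitors, and Esrp2 (1.78, 0.27 to 3.75), a splicing regulator, while Grhl3 (-1.66, -3.16 to -0.25) was lower. Of the 5 mesenchymal regulators with enough UMIs, 3 were at least 2-fold higher and 1 lower. Of the higher, Zeb1 had 22 luminal and 0 basal UMIs, so its call rests on the floor of 3 counts, and it was named after its values were seen. The lower one was Snai2 (-1.14, -2.05 to -0.23), whose product represses epithelial genes. Zeb2 was higher (1.92, 0.58 to 3.62), and Snai1 had a ratio of 1.16 with an interval that includes 0 (-0.04 to 2.58). These 2 ratios have the direction of the fibroblast markers, whose summed level was 561 CPM in luminal and 120 CPM in basal keratin cells of Ctrl. In luminal keratin cells of Fgfr2 KO those markers were lower, at 151 CPM, while Zeb2 was higher than in Ctrl (1.22). The summed mesenchymal regulators were also at 489 CPM in CD45-positive Ctrl cells with few keratin UMIs. The part of fibroblast or immune RNA in these ratios was not tested.

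In luminal keratin cells of Fgfr2 KO against Ctrl, Elf3 was lower (-1.17, -2.11 to -0.35) and Zeb2 higher (1.22, 0.35 to 2.04). The intervals of Snai2 (-2.17, -7.53 to 0.46, on 1 UMI in Fgfr2 KO), Snai1 (-1.17, -3.52 to 0.51, on 3) and Grhl1 (1.22, -0.03 to 2.37) include 0. In basal keratin cells so did those of Ovol1 (-1.11, -4.26 to 0.94, on 2 UMIs) and Ehf (-1.03, -2.98 to 0.45, on 4).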

How the data were processed

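Single-cell RNA-seq counts were analysed from 2 libraries, Ctrl and Fgfr2 KO. The deposited table holds UMI counts per gene and cell, not normalized, which the authors made with Cell Ranger (2.1.1 per the submitters' processing notes, which name mm10) by joining both libraries. The gene annotation is not given in the sources used here, and no cell barcode was shared by the libraries. Cells of the deposited table were kept with no depth filter and doublets were not removed. UMIs were summed over cells of a class and divided by the summed total (CPM). Exact Poisson, Clopper-Pearson and conditional binomial intervals (SciPy 1.17.1) were used. A ratio needed 20 UMIs over both groups, was called at 2-fold, and took a floor of 3 counts where 1 group was at 0. The intervals were tested on simulated data.

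All 9 genes are described. Of each other list, up to 3 genes a comparison with the largest log2 ratio are named, and for likeness the 10 highest. The genes and lists were chosen with earlier results of these data known. Lists were other tight junction, adherens junction, desmosome, epithelial and mesenchymal regulator genes, and markers of basal, luminal, hormone-sensing, secretory progenitor, immune, fibroblast, endothelial and adipocyte cells. Endothelial markers stood at 17.7 to 20.1 CPM in 3 of the 4 classes and at 7.46 CPM in Fgfr2 KO luminal keratin cells, and adipocyte markers had 1 UMI in all 4. Cells were thinned to the 10th percentile of depth with seed 0. Alternatives covered cell filters, classes, scaling and depth, including Scrublet in scanpy 1.11.5, which marked 2 cells in Ctrl and 6 in Fgfr2 KO. Promoters came from RefSeq (GRCm38.p6) and gene coordinates from GENCODE (GRCm38), both the mm10 sequence.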

Additional observations from a re-analysis of the deposited data

Results flagged for a closer look

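Several genes had opposite signs in 2 groups under the same contrast, and none of these differences was tested. The log2 ratio of Fgfr2 KO over Ctrl was 0.43 in luminal and -0.62 in basal keratin cells for Tjp1, and -0.49 and 0.08 for F11r. The log2 ratio of luminal over basal keratin cells was 0.08 in Ctrl and -0.64 in Fgfr2 KO for Lsr, and 0.26 and -0.31 for F11r. With 1 library per group the difference between libraries cannot be told apart from the difference between preparations.

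The 9 genes also gave signal in cells that the comparisons left out. CD45-positive cells with keratin UMIs held 557 CPM of the 9 genes in Ctrl (15 cells) and 2286 CPM in Fgfr2 KO (1 cell), against 78.8 and 37.4 CPM in CD45-positive cells with few keratin UMIs. The Fgfr2 KO cell had 83994 UMIs, a single Ptprc UMI, 90 UMIs of Cldn4 and 34 of Cldn3.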

How the results depend on the processing

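No paired analysis was possible because each group had 1 library. Of the 15 alternatives, 2 were added after the data were seen (no cells with UMIs of at least 6 immune marker genes, and none with over 10 fibroblast marker UMIs). Together the 15 gave 442 ratios of single genes, of which 405 stayed within the counting interval of the reported value, 36 moved out of it and 1 reversed. A value counts as reversed only where its reported interval excluded 0 and its sign changed. Signs also changed where the reported interval includes 0. Between the libraries in basal keratin cells, F11r (0.08) was below 0 in 5 of 15 and Cldn7 (-0.63) above 0 in 3. The reversed value was Cldn3 in luminal keratin cells, Fgfr2 KO over Ctrl, from -0.29 to 0.31 without cells with UMIs of at least 3 immune marker genes, a filter that left 13 Ctrl and 9 Fgfr2 KO luminal keratin cells. The median ratio of luminal over basal keratin cells in Ctrl, 1.34, was 2.16 under that filter, 2.35 with at least 80% of keratin UMIs of 1 kind, 1.79 as a mean of CPM per cell, 1.78 with cells thinned to 1 depth and 1.75 without cells with UMIs of at least 6 immune marker genes, and in Fgfr2 KO, 1.78, it was 2.59 with cells thinned. The count of genes at least 2-fold apart between the libraries in luminal keratin cells, 2, was 1 with no Ptprc filter, with no keratin minimum, with 80% of keratin UMIs of 1 kind, with classes from other markers, as a mean of CPM per cell, scaled without mitochondrial and ribosomal UMIs and without cells of at least 10 GFP UMIs, and 3 under both filters on immune genes. In basal keratin cells, 2, it was 1 under both filters on immune genes and with cells thinned, and 3 with classes from other markers, without the top cell of each gene and group and with no UMI minimum. Lsr lay on the 2-fold line, and its ratio ran from -1.51 to -0.63 over the alternatives. Depth limits Cldn1, with 1 to 16 UMIs a class, and Ocln, with 2 to 44.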
